A study of Mus musculus with 30 samples.

Results

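Spermatogonial differentiation genes were followed through the transcriptome and the mRNA half-lives of cultured mouse spermatogonial stem cells (SSCs). The list held 7 genes: *Kit*, *Neurog3*, *Sohlh1*, *Sohlh2*, *Stra8*, *Rarg* and *Rara*. They were listed by name and not picked by a measured value, although earlier results of these data were known. Each was used wherever a table listed it. FPKM (fragments per kilobase of transcript, scaled to library depth) was listed for 6 of the 7, among 13904 genes. A half-life was listed for 3 of the 7 (*Sohlh2*, *Rara* and *Rarg*), among 5806 transcripts, so that *Sohlh2* and *Rara* alone had both readouts. *Rarg* had a half-life and no FPKM row, as did 654 transcripts in all, so the absence of a row cannot be read as absence of the RNA.

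The cells were SSC lines grown on fibroblast feeders, and both lines carried a tagged *Nanos2* allele. Before RNA was taken the cells were depleted of feeders, per the labels, or sorted by flow cytometry, per the study's methods. NANOS2 is an RNA-binding protein needed for SSC self-renewal. In the TAG allele the epitope tag and EGFP are fused to the N terminus of the endogenous protein. Line 4 was heterozygous (Nanos2 TAG/+) and line 5 homozygous (Nanos2 TAG/TAG). Each line gave 1 RNA-seq library and 12 SLAM-seq libraries, which were 2 technical replicates at each of 6 times (0, 30, 60, 120, 540 and 1440 min) after 4-thiouridine was withdrawn. The study treated the lines as biological replicates of its half-lives. Genotype and line differed together, and their parts in any difference between the libraries cannot be told apart. The labels also give another RNA extraction reagent for each RNA-seq library (QIAzol for TAG/+ and Trizol for TAG/TAG), whereas the methods name QIAzol for RNA-seq without such a difference. The study describes such cultures as mixtures of stem and progenitor cells, and in a bulk library fewer cells of a type and less RNA per cell cannot be told apart either. With 1 library per line there was no test. Intervals are exact 95% intervals of the counts recovered from FPKM and cover counting error only.

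The libraries were alike in depth, with recovered counts that sum to 10977831 (TAG/+) and 11656606 (TAG/TAG). The scales behind FPKM, 10908790 and 11738620 reads, were close to these sums but not equal to them. The median FPKM was 10.2 and 10.5. Germ cell genes were well represented. *Dmrt1*, a regulator that holds spermatogonia in mitosis, was at 666 FPKM in the TAG/+ library and 590 FPKM in the TAG/TAG library. *Ddx4*, a germ cell RNA helicase named here after its values were seen, was at 31.0 and 41.4 FPKM. *Nanos2* itself was at 27.5 FPKM in the TAG/+ library and 23.8 FPKM in the TAG/TAG library, a ratio of 0.864 (interval 0.757 to 0.986). Feeder and somatic markers were also present, as described below.

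The genes act along 1 path. SSCs lie among the undifferentiated spermatogonia. *Neurog3* encodes a bHLH transcription factor that marks progenitors on their way out of that pool. Retinoic acid then drives the step to differentiating spermatogonia. It acts through nuclear receptors, of which RARG and RARA (from *Rarg* and *Rara*) are members. SOHLH1 and SOHLH2 are bHLH factors that act together in this step. KIT, the receptor tyrosine kinase for KIT ligand, appears on differentiating spermatogonia, and *Stra8* is a retinoic acid-induced gene needed for entry into meiosis.

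NANOS2 recognises a short AU-rich motif, mostly in 3′ UTRs, so the members' 3′ UTRs were read from the reference for the 4 spellings of its consensus, on the mRNA strand alone. These were AUGAAAU, its variant with U before the last letter (AUGAAUU), its variant with U as the third letter (AUUAAAU), and the spelling with both of these changes (AUUAAUU). No other motif was searched. For each gene 1 coding transcript of GENCODE M21 on GRCm38 was used. A match was found in 3 of the 7 genes, 1 in each. They are shown, 5′ to 3′ and as RNA, because *Sohlh2* and *Rara* are the genes with both readouts, and *Stra8* completes the set. Capitals mark the match, with 10 bases on each side.
Sohlh2: ccacacacacAUUAAUUcuaccaaaaa
Rara: auccccagauAUUAAUUcucguugguu
Stra8: gaaggaggagAUUAAAUgggggagggg

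The *Sohlh2* match lies at chr3:55209439-55209445 on the plus strand, in the last exon, and begins at base 403 of a 3′ UTR of 921 bases. The *Rara* match, with the same 7 letters, lies at chr11:98974068-98974074 on the plus strand and begins at base 431 of 1305. The *Stra8* match lies at chr6:34939196-34939202 on the plus strand and begins at base 26 of a 3′ UTR of only 174 bases. *Kit* (2177 bases of 3′ UTR), *Neurog3* (656), *Sohlh1* (162) and *Rarg* (1086) had none of these letters in this window.

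Matches to so short a motif were common. Of 20828 coding genes with a 3′ UTR, 37.6% held at least 1, and the pooled density was 0.566 matches per kb, against 0.463 per kb over the 7 members. Among 3′ UTRs within 20% of its length, a match was found in 36.2% for *Sohlh2*, 45% for *Rara* and 9.97% for *Stra8*. For the genes without a match the share was 58.9% at the length of *Kit*, 39.5% at that of *Rarg*, 27.5% at that of *Neurog3* and 10.3% at that of *Sohlh1*. These are matches of letters and do not show binding. The study cites earlier RNA immunoprecipitation work that found *Sohlh2* mRNA bound by NANOS2. It ranks that method as the least stringent, as no cross-linking ties the RNA to the protein. The NANOS2 cross-linking libraries of the series were not analysed here.

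*Sohlh2* was the most abundant of the 6 genes with FPKM. The transcript, from a gene of 11 exons on the plus strand of chr3:55182028-55209957, was at 173 FPKM in the TAG/+ library (4470 counts, interval 168 to 178) and 125 FPKM in the TAG/TAG library (3474 counts, interval 121 to 129). It stood above 95.1% and 92.8% of genes in those libraries. Its partner *Sohlh1*, on the minus strand of chr2:25842995-25847248, was at 16.9 FPKM (237 counts, interval 14.8 to 19.1) and 10.4 FPKM (158 counts, interval 8.88 to 12.2). *Sohlh2* was thus 10.3 times the level of *Sohlh1* per length in the TAG/+ library and 12.0 times in the TAG/TAG library. Both genes have 1 annotated transcript, so this ratio does not depend on which isoform sets the length.

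Between the libraries, *Sohlh1* and *Sohlh2* were both lower in TAG/TAG. The FPKM ratio of TAG/TAG over TAG/+ was 0.620 for *Sohlh1* (interval 0.503 to 0.761) and 0.722 for *Sohlh2* (interval 0.691 to 0.755). The intervals of their FPKM values did not overlap between the libraries, but at this depth the interval of the ratio left out 1 for 68.4% of all genes. Neither difference reached 2-fold, and on the scale of log2(FPKM + 0.1) they were -0.69 and -0.47. Such differences were ordinary in this pair of libraries, since 16.3% of all genes lay further down than *Sohlh1* and 23.8% further down than *Sohlh2*.

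*Kit*, on the plus strand of chr5:75574916-75656722, was at 38.5 FPKM in the TAG/+ library (997 counts, interval 36.2 to 41.0) and 30.7 FPKM in the TAG/TAG library (854 counts, interval 28.7 to 32.8), and the intervals did not overlap. The ratio was 0.796 (interval 0.726 to 0.873), a log2 difference of -0.33, and 30.7% of genes lay further down. Its level against other genes depended on the length used. The deposited FPKM divides by the mean length of the annotated transcripts, which is 2371 bases for the 8 of *Kit*. With the 5214 bases of its main coding transcript, *Kit* was at 17.5 and 14 on the FPKM scale. It then lay within the interval of *Sohlh1* in the TAG/+ library and above it in the TAG/TAG library. With the merged exons (8911 bases) it was at 10.3 and 8.16, below *Sohlh1* in both. *Kit* and *Sohlh1* therefore have no settled order.

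*Stra8*, on the plus strand of chr6:34920163-34939344, was low. It was at 8.21 FPKM in the TAG/+ library (111 counts, interval 6.75 to 9.88) and 6.18 FPKM in the TAG/TAG library (90 counts, interval 4.97 to 7.60), under the median gene in both. The 2 intervals overlapped. The ratio of 0.753 had an interval of 0.564 to 1.00, whose upper bound was just above 1, so that a difference was not resolved at this depth.

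*Neurog3* had the largest difference of the 6. The gene, on the plus strand of chr10:62133090-62134763, was at 0.574 FPKM in the TAG/+ library, which rests on 7 counts (interval 0.231 to 1.18). In the TAG/TAG library it was at 8.23 FPKM, on 108 counts (interval 6.75 to 9.94). The intervals were far apart. The ratio was 14.3 (interval 6.73 to 36.5), and the log2 difference of 3.63 was exceeded by 1.73% of genes, which places it at 242 from the top. In TAG/+ *Neurog3* stood above 8.01% of genes and in TAG/TAG above 45.1%. In the TAG/TAG library its interval overlapped those of *Stra8* and *Sohlh1*, whereas in the TAG/+ library it lay below both.

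*Neurog3* is also the 1 member with an exon shared with another gene. *Fam241b*, on the opposite strand, has exons over 273 of its 1674 exonic bases (16.3%), at the 3′ end. *Fam241b* was itself higher in the TAG/TAG library, at 19.1 FPKM against 9.09 FPKM. The library kit marks strand, but the sources used here do not say whether counting used it. If the counts of *Fam241b* lay evenly over its exons, 8.52 in the TAG/+ library and 19.2 in the TAG/TAG library would fall in the shared stretch, against 7 and 108 counted for *Neurog3*. For the other members no exon was shared. Of the 50-base stretches within the exons of the chosen transcript, none recurred in the assembled chromosomes for 5 of the 7 genes, and 0.588% did so for *Rara* and 0.448% for *Stra8*.

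*Rara*, on the plus strand of chr11:98927818-98974942, was the second most abundant member and the other gene that was higher in TAG/TAG. It was at 54.0 FPKM in the TAG/+ library (1285 counts, interval 51.1 to 57.1) and 67.0 FPKM in the TAG/TAG library (1715 counts, interval 63.9 to 70.3). The intervals did not overlap. The ratio of 1.24 (interval 1.15 to 1.33) corresponds to a log2 difference of 0.31, and 33.1% of all genes lay further up. *Rarg*, the other receptor listed, on the minus strand of chr15:102234938-102257517, could not be placed by level.

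**Figure D1:**
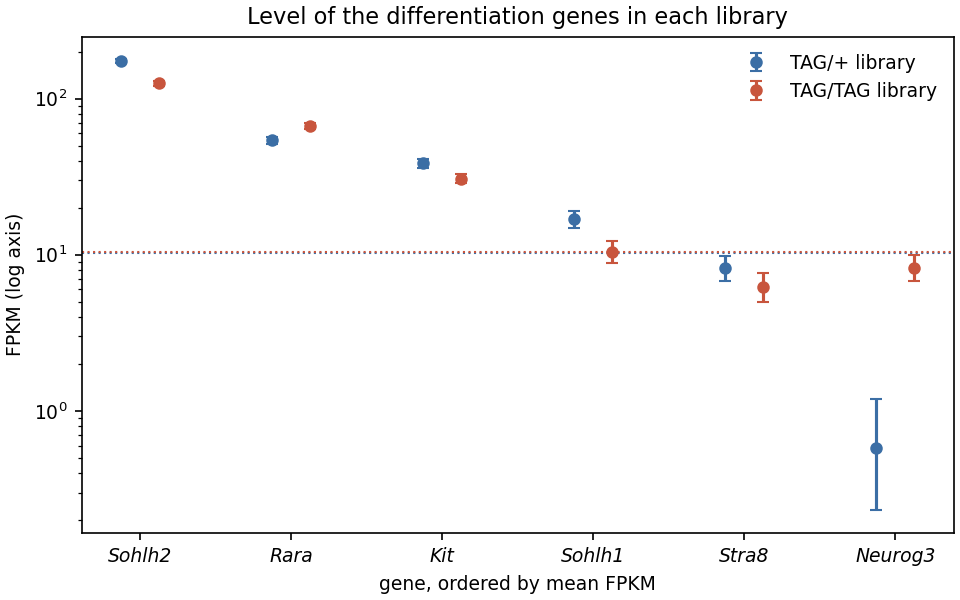
FPKM (log axis) of the 6 genes with FPKM in the Nanos2 TAG/+ (blue) and TAG/TAG (red) libraries, ordered by mean FPKM; points are values, bars are 95% counting intervals and dotted lines mark the median gene. *Sohlh2* lies above 100 FPKM in both libraries, and *Neurog3* is at 0.574 FPKM in TAG/+ and 8.23 FPKM in TAG/TAG.

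Across the 6 genes, 4 were lower and 2 higher in the TAG/TAG library, with a median log2 difference of -0.37, against 0.01 over all genes. The counting interval of the ratio left out 1 for 5 of these 6, all but *Stra8*, beside the 68.4% of all genes given above. Past 2-fold, 13.5% of all genes were higher in TAG/TAG and 9.59% lower. Among the members 1 of 6 was higher (*Neurog3*) and 0 lower. The members other than *Neurog3* all had log2 differences between -0.69 and 0.31, inside the range of -1.48 to 1.99 that held the middle 90% of genes.

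**Figure D2:**
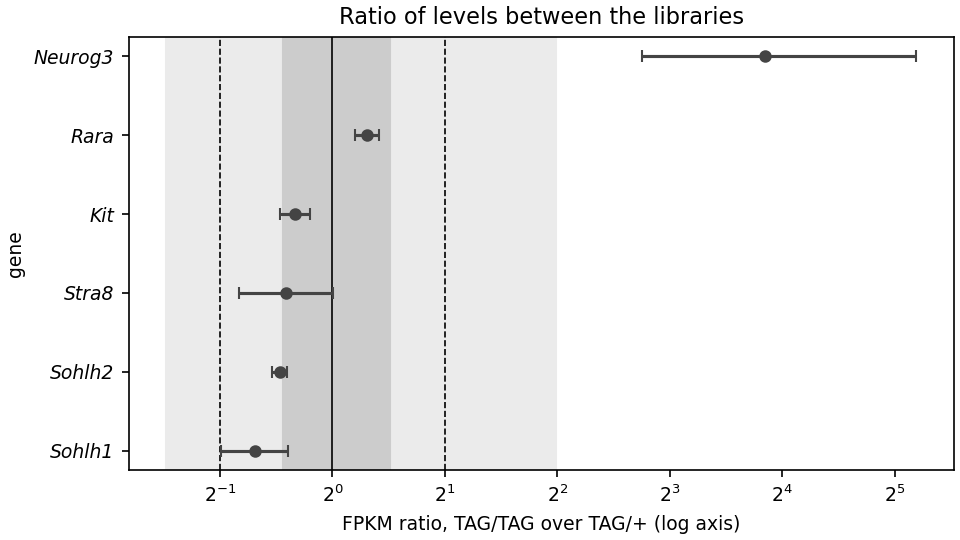
FPKM ratio of TAG/TAG over TAG/+ (log axis) for the 6 genes, with 95% counting intervals; dark and light grey bands hold the middle 50% and 90% of all genes, and dashed lines mark 2-fold. *Neurog3*, at 14.3, lies outside the bands, and the other 5 lie within the light band.

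By deposited FPKM the order was *Sohlh2*, *Rara*, *Kit*, *Sohlh1* and *Stra8* in both libraries, with *Neurog3* last in TAG/+ and above *Stra8* in TAG/TAG. The places of *Sohlh2* and *Rara* at the top were the same with each length used. The neighbours that were not separated were *Kit* and *Sohlh1*, for the choice of length given above, and, in the TAG/TAG library, *Neurog3* and both of its neighbours, *Sohlh1* and *Stra8*, by overlapping intervals.

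Half-lives separated the members in another way. They were fitted by the authors, 1 per transcript and line, and were read as minutes since the chase times are in minutes. No error came with them, so the spread given here is that between the 2 lines. The median transcript had a half-life of 224 min in the TAG/+ line and 226 min in the TAG/TAG line, and the middle 50% lay between 162 and 289 min and between 159 and 300 min. Of all transcripts 39.8% were above the median in both lines and 39.8% below it in both.

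*Sohlh2* mRNA was long-lived. Its half-life was 407 min in the TAG/+ line and 492 min in the TAG/TAG line (449 ± 60.0 min, SD, n = 2 lines), above 90.8% and 92.5% of transcripts. Highly expressed transcripts had longer half-lives in general, with a median of 307 min in the top decile of mean FPKM against 171 min in the middle decile that holds *Stra8*. Within that top decile *Sohlh2* stood at the 74.0 percentile in the TAG/+ line and the 79.6 percentile in the TAG/TAG line.

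*Rara* mRNA was short-lived. Its half-life was 154 min in the TAG/+ line and 82.3 min in the TAG/TAG line (118 ± 51.0 min, SD, n = 2 lines), at the 22.5 and 4.91 percentiles. Among transcripts of its own decile of mean FPKM, whose median was 249 min, it stood at the 9.8 and 1.2 percentiles. *Rarg* lay between, at 208 min in the TAG/+ line and 178 min in the TAG/TAG line (193 ± 21.1 min, SD, n = 2 lines), or the 42.7 and 31.7 percentiles. The order *Rara*, *Rarg*, *Sohlh2* was the same in both lines, and the ranges over the lines did not overlap. *Sohlh2* and *Rara*, the 2 most abundant members with FPKM, thus lay on opposite sides of the median half-life. The 3′ UTRs of both hold the match AUUAAUU shown above, and whether it bears on half-life was not tested.

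**Figure D3:**
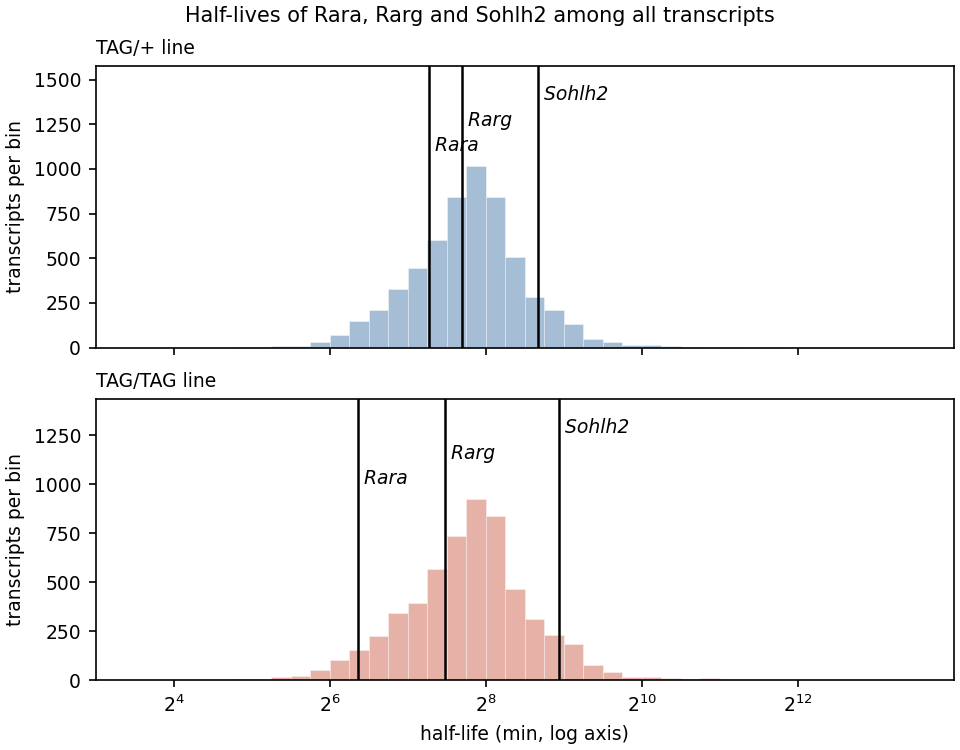
Histograms of the half-lives (min, log axis) of 5806 transcripts in the TAG/+ line (top) and the TAG/TAG line (bottom), with vertical lines at *Rara*, *Rarg* and *Sohlh2*. *Rara* is at 154 and 82.3 min, and *Sohlh2* lies in the right flank at 407 and 492 min.

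Between the lines, the half-life of *Rara* was 1.88 times as long in TAG/+ as in TAG/TAG, a log2 difference of -0.91. In that direction it was passed by 4.79% of transcripts. *Sohlh2* was 1.21 times as long in TAG/TAG (log2 difference 0.27) and *Rarg* 1.17 times as long in TAG/+ (log2 difference -0.22). Half-lives of 20.7% of all transcripts were over 1.5-fold apart between the lines, in either direction, and so was that of 1 of the 3 members (*Rara*). For *Rara* the level was higher in the line where its half-life was shorter, and for *Sohlh2* the level was lower where its half-life was longer. With 1 value per line neither could be tested.

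A half-life was listed more often the higher the level. It was listed for 3.38% of genes in the lowest decile of mean FPKM and 68.5% in the highest. The shares at the members without one were 20.6% in the decile of *Neurog3*, 34.0% in that of *Stra8*, 44.7% in that of *Sohlh1* and 59.4% in that of *Kit*. *Rara* and *Sohlh2* lay in the highest 2 deciles, at 66% and 68.5%. Of the members with FPKM, those with a half-life (*Sohlh2* and *Rara*) were thus the most abundant, whereas *Rarg* had no FPKM to place it. The half-lives say nothing of *Kit*, *Neurog3*, *Sohlh1* and *Stra8*.

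**Figure D4:**
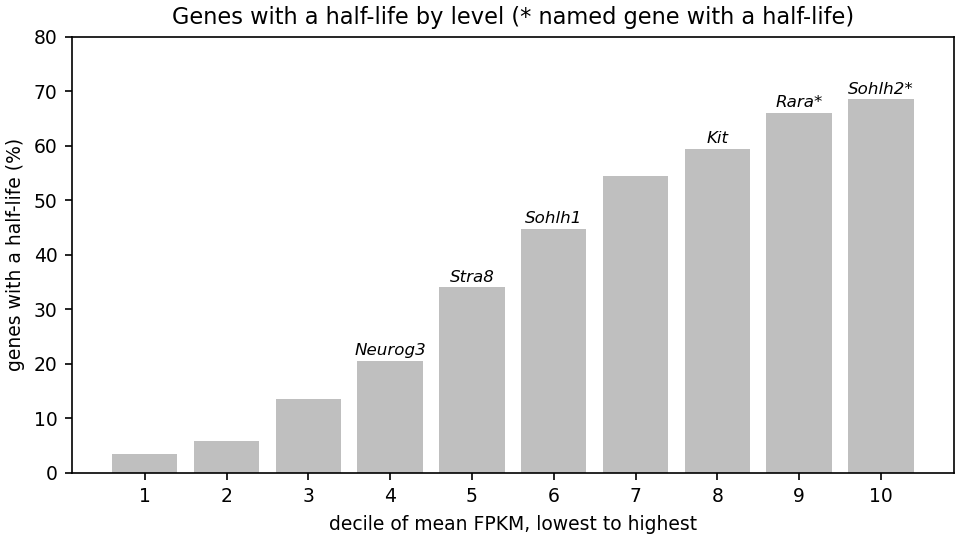
Share of genes with a half-life (%) in each decile of mean FPKM, with the differentiation genes written over their decile and an asterisk on those with a half-life. The share climbs from 3.38% to 68.5%, and the marked genes *Rara* and *Sohlh2* are in the highest 2 deciles.

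The genes most like *Sohlh2* over 4 values (log2(FPKM + 0.1) and log2 half-life in each line, each scaled to an SD of 1, 5152 transcripts) were *Smarcd2* and *Tomm34*, at distances of 0.185 and 0.186 against a median of 2.74. *Smarcd2* was at 141 and 126 FPKM with half-lives of 391 and 471 min in TAG/+ and TAG/TAG. For *Rara* they were *A430005L14Rik* and *Ulk1*, at distances of 0.206 and 0.299 against a median of 2.46. *Ulk1* was at 65.2 and 74.7 FPKM with half-lives of 157 and 95 min.

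The retinoic acid pathway around the receptors was listed in 3 groups. Counts past 2-fold in these and the later lists stand beside 13.5% of all genes higher in TAG/TAG and 9.59% lower. Of 10 receptors and receptor partners, 8 had FPKM, of which 1 was over 2-fold higher in TAG/TAG, 0 lower and 7 within 2-fold, with a median log2 difference of -0.05. *Ncor1*, a corepressor, was at 105 FPKM in TAG/+ and 139 FPKM in TAG/TAG. *Ncoa1*, a coactivator, was at 2.17 and 1.32 FPKM. *Rxra*, the usual heterodimer partner and named after its values were seen, was at 80.9 and 76.9 FPKM. The gene past 2-fold was *Rxrg*, named for that reason, which rested on 2 and 20 counts.

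Of 14 genes of retinoid synthesis, storage and transport, 10 had FPKM, with a median log2 difference of 1.13. Of these, 6 were over 2-fold higher in TAG/TAG and 0 lower, beside 13.5% and 9.59% of all genes. Among the 6, *Lrat*, named after its values were seen, rested on 3 and 32 counts in TAG/+ and TAG/TAG. In the other direction, *Aldh1a3* and *Fabp5*, named for that reason, were at 7.03 and 5.95 FPKM and at 0.911 and 0.524 FPKM. *Dhrs3*, a retinaldehyde reductase, was at 0.575 FPKM (8 counts) and 5.27 FPKM (79 counts). *Rdh10*, a retinol dehydrogenase, was at 0.926 and 3.13 FPKM. The retinoic acid-binding protein genes *Crabp1* and *Crabp2* were at 52.3 and 92.6 FPKM and at 4.62 and 10.7 FPKM, of which *Crabp1* did not reach 2-fold. The 3 genes of retinoic acid degradation (*Cyp26a1*, *Cyp26b1* and *Cyp26c1*) had neither readout here.

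Around KIT, 14 of 18 genes had FPKM, of which 2 were over 2-fold higher in TAG/TAG and 0 lower, with a median log2 difference of 0.22. *Fyn*, a Src-family kinase, was at 71.2 and 118 FPKM in TAG/+ and TAG/TAG. *Cbl*, a ubiquitin ligase for activated receptors, was at 79.3 and 90.2 FPKM, and the adaptor gene *Sh2b3* at 38.9 and 66.2 FPKM. *Pik3r1*, a regulatory subunit of PI3-kinase, was at 0.979 and 5.46 FPKM. The other gene past 2-fold, *Ptpn6*, named for that reason, rested on 5 and 30 counts. *Kitl*, the ligand, had no row. Of 11 genes of this list with half-lives, 8 were under the median in both lines and 0 above it in both, beside 39.8% of all transcripts on either side.

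Of 18 other progenitor and differentiation genes 17 had FPKM, with 1 over 2-fold higher in TAG/TAG, 0 lower and a median log2 difference of 0.06. *Dmrt1* was the most abundant, with *Ccnd2*, a D-type cyclin, at 263 and 371 FPKM in TAG/+ and TAG/TAG. The gene past 2-fold was *Gata2*, at 3.78 and 12.0 FPKM, and *Sox3*, a progenitor transcription factor, was at 17.4 and 31.2 FPKM. Of 14 with half-lives, 12 were above the median in both lines, as *Sohlh2* was, and 0 below it in both, beside 39.8% of all transcripts on either side. Other lists lay on the same side, with 9 of 12 genes of undifferentiated spermatogonia and 6 of 8 feeder markers above the median in both lines. These shares were not matched for level. The median half-life of the 14 was 312 min in TAG/+ and 301 min in TAG/TAG, beside 307 min in the top decile of mean FPKM.

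Of 18 genes of undifferentiated spermatogonia, 16 had FPKM, with a median log2 difference of 0.91. Of these, 7 were over 2-fold higher in TAG/TAG and 0 lower, beside 13.5% and 9.59% of all genes. *Ret*, the signalling receptor for GDNF, was at 73.2 and 181 FPKM. *Bcl6b*, a GDNF-responsive repressor, was at 23.1 and 225 FPKM, and *Eomes*, a T-box factor, at 0.272 FPKM (8 counts) and 5.95 FPKM (188 counts). *Zbtb16*, named after its values were seen, was at 107 and 102 FPKM. The other 9 were within 2-fold. Among them *Pou5f1*, also named after its values were seen, was lower in TAG/TAG, at 50.5 and 35.9 FPKM. Beside these lay the members, at ratios of 0.620 (*Sohlh1*), 0.722 (*Sohlh2*), 0.753 (*Stra8*), 0.796 (*Kit*), 1.24 (*Rara*) and 14.3 (*Neurog3*).

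Markers of other cells were followed beside these, in RNA that the methods describe as from sorted SSCs. For the fibroblast feeder, 15 of 16 markers had FPKM, with a median log2 difference of 0.55. Of these, 6 were over 2-fold higher in TAG/TAG and 1 lower, beside 13.5% and 9.59% of all genes, and 8 lay within 2-fold. The lower one, *Twist2*, named for that reason, was at 1.76 and 0.354 FPKM (37 and 8 counts) in TAG/+ and TAG/TAG. The summed level of the 15 was 423 FPKM in TAG/+ and 598 FPKM in TAG/TAG, most of it from *Fn1* and *Sparc*. *Fn1* was at 254 and 280 FPKM, *Sparc* at 73.9 and 158 FPKM, *Col6a1* at 1.24 and 2.98 FPKM and *Pdgfrb* at 0.660 and 6.75 FPKM. *Col3a1* and *Pdgfra*, named after their values were seen, were near level at 7.10 and 6.79 FPKM and at 4.21 and 4.59 FPKM. For Sertoli cells, 4 of 9 markers had FPKM, summing to 5.89 and 27.1 FPKM. Their median log2 difference of 1.36 was the highest of any list, and 3 of the 4 were over 2-fold higher in TAG/TAG. *Wt1* was at 2.51 and 19.6 FPKM, *Sox9* at 2.19 and 4.49 FPKM and *Gata4* at 0.643 and 2.35 FPKM (13 and 51 counts). *Cldn11*, named after its values were seen, was near level at 0.539 and 0.592 FPKM (11 and 13 counts). *Amh*, *Amhr2*, *Dhh*, *Fshr* and *Rhox5* had no row.

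For Leydig and peritubular myoid cells, 2 of 10 markers had FPKM, summing to 5.04 and 3.40 FPKM. *Des* was higher in TAG/TAG (0.414 and 2.20 FPKM, 7 and 40 counts) and *Star* lower (4.62 and 1.2 FPKM, 118 and 33 counts). Of 12 meiotic genes 9 had FPKM, with a median log2 difference of -0.12. Of these, 2 were over 2-fold lower in TAG/TAG and 0 higher, beside 9.59% and 13.5% of all genes. The 9 summed to 407 and 263 FPKM, and to 140.2 and 131 FPKM for the 8 without *Rec8*, a sum chosen after seeing the data. *Rec8*, a meiotic cohesin, was at 267 and 133 FPKM, and *Hormad2* at 34.2 and 25.9 FPKM. *Sycp3*, a synaptonemal complex protein, was at 4.59 and 0.632 FPKM (54 and 8 counts). In the other direction, *Smc1b*, named for that reason, was at 23.6 and 36.4 FPKM. No listed marker with a row was at 0 in either library. The part of these cells in the values of *Neurog3* and the other members was not tested.

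**Figure D5:**
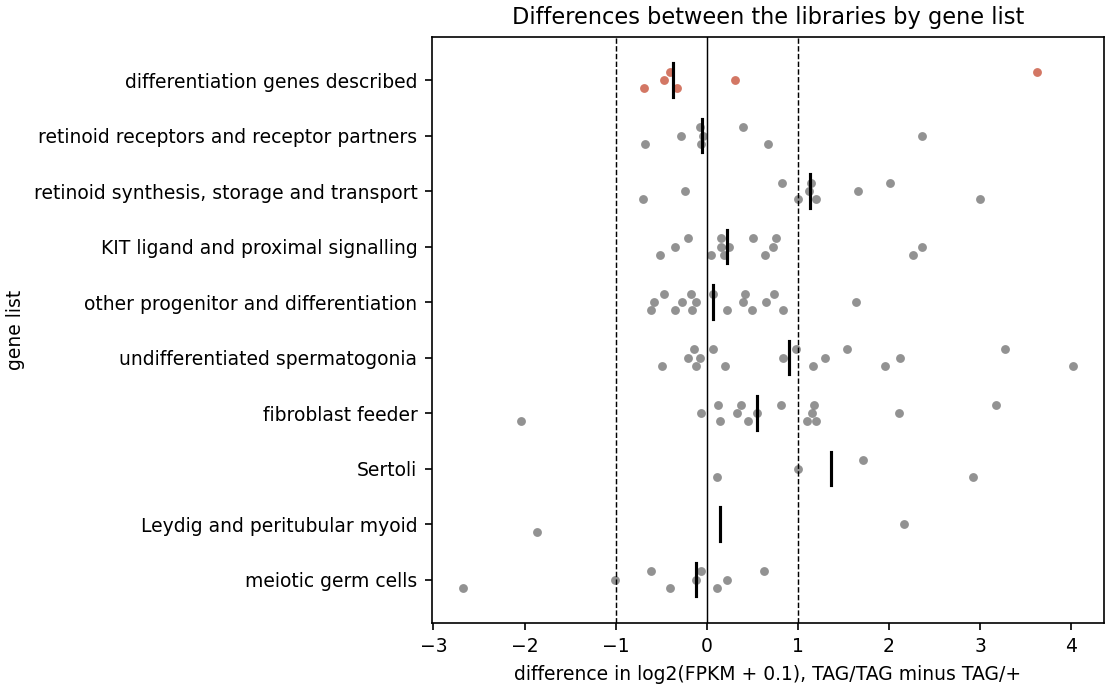
Difference in log2(FPKM + 0.1), TAG/TAG minus TAG/+, for each gene with FPKM in 10 lists; points are genes, short black lines are list medians and dashed lines mark 2-fold. The differentiation genes (red) have a median of -0.37 with *Neurog3* alone at 3.63. The highest list medians are those of Sertoli markers (1.36, 4 genes), retinoid synthesis (1.13) and undifferentiated spermatogonia (0.91).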

How the data were processed

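RNA-seq and SLAM-seq tables of SSC lines were used, each column mapped to its sample by its name and label. Per the methods, RNA-seq used ribosomal RNA-depleted total RNA, SENSE libraries and 50 bp single-end reads. The authors deposited FPKM, and the submitters' processing notes name kallisto and DESeq2 without a role. The aligner and genome build behind FPKM are not given in the sources used here. FPKM times the mean annotated transcript length (GENCODE M21, GRCm38) times 1 scale per library gave whole counts, within 0.01, for 100% of 13884 genes, which may be estimated counts that were rounded. The recovery was tested on simulated data. The half-lives (min) were fitted by the authors, who collapsed the technical replicates of T-to-C conversion rates from SlamDunk and fitted exponential decay by nls. The deposited tables give no depth or error for them, nor the filter behind 5806 transcripts.

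Differences were taken as log2(FPKM + 0.1) of TAG/TAG minus TAG/+. Intervals are exact Poisson for levels and Clopper-Pearson on the split of counts for ratios (scipy 1.17.1, Python 3.11.15). With 1 library per line no p-value was computed. The members and gene lists were chosen with earlier results of these data known. Named from each list were the 2 genes highest in mean FPKM and the 2 with the largest difference among those with at least 50 counts over both libraries. A result that this rule would name is not reported here. Likeness was the Euclidean distance over 4 values, with the 2 nearest genes named. Alternatives changed the pseudocount, scaling, length, fold and transcripts compared. Of 30 samples, the 4 cross-linking libraries were not analysed here. 3′ UTRs were read from GRCm38.p6 (RefSeq) by GENCODE M21 coordinates.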

Additional observations from a re-analysis of the deposited data

How the results depend on the processing

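Of 37 alternative values for single genes, 31 moved less than their spread (the counting interval for FPKM, and for half-lives the SD between lines or over transcripts), and every gene kept the direction of its log2 differences. With a pseudocount of 1 that of *Neurog3* was 2.55 in place of 3.63. At 1.5-fold, 2 of the 6 genes were past the threshold in place of 1, the other being *Sohlh1*, which was lower. The share of all genes past 1.5-fold was not taken, but 16.3% of all genes lay further down than *Sohlh1*. With merged exon lengths, 14 of the 15 pairs of genes kept the order of mean FPKM, the exception being *Kit* and *Sohlh1*. With the length of 1 coding transcript, an alternative chosen after seeing the data, all 15 did. The share of all genes past 2-fold was 23.1%, and 18% among those with at least 50 counts. The median half-life of the 3 genes was 193 min, and 208 or 178 min in TAG/+ or TAG/TAG alone. The other 5 values that moved were half-life percentiles: *Sohlh2* within its FPKM decile (as given above) and among half-lives under 540 min (94.2 and 97.9), and *Rara* in the TAG/+ line within its decile. No paired analysis was possible because the lines had 1 RNA-seq library and 1 half-life per transcript each, and no result came from a test. Depth limited *Neurog3* in the TAG/+ library (7 counts) and *Stra8*.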
